A study of Mus musculus with 8 samples.

Results

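The genes described here carry out and use the vitamin K cycle of the mouse liver. They are Ggcx, the reductase genes Vkorc1 and Vkorc1l1, and 7 genes for vitamin K-dependent plasma proteins made by the liver (F2, F7, F9, F10, Proc, Pros1 and Proz), 10 of the 46078 genes in the count table. Ggcx was chosen by its genotype difference in these same samples, where it had the smallest p-value of all genes, so its values are a description and carry no test. The other 9 were listed by function.

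RNA was sequenced from the livers of 5 wild-type (WT) and 3 Rbfox2 knockout (Rbfox2 KO) mice. Rbfox2 encodes an RNA-binding splicing regulator, and the knockout asks which liver transcripts depend on it under an obesogenic diet. In the study's methods, Rbfox2 KO mice carried loxP-flanked Rbfox2 alleles and a Cre recombinase driven by the albumin promoter (Alb-Cre), which is active in hepatocytes, and the WT mice carried the same flanked alleles without Cre. By this design the other cells of the liver keep Rbfox2. Those methods list C57BL6/J among the strains obtained and do not state the background of the Rbfox2 KO and WT mice. An age of 8 weeks at the start of the diet and the use of males unless stated otherwise come from the same methods. The sample labels give neither age nor sex. Both groups drank water with 30% (w/v) fructose for 22 weeks and were fasted before the liver was taken. A library was made for each liver, and the labels do not say whether samples share a litter.

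Gamma-glutamyl carboxylase, the product of Ggcx, is a membrane enzyme of the endoplasmic reticulum. It turns glutamate residues in the Gla domain of its substrates into gamma-carboxyglutamate, which binds calcium and lets the secreted proteins attach to phospholipid surfaces. The reaction oxidises reduced vitamin K to its epoxide, and vitamin K epoxide reductase, encoded by Vkorc1 and blocked by warfarin, regenerates the cofactor. Hepatocytes are the main source of the circulating clotting factors that need this modification.

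The 250 bases before the annotated transcription start of Ggcx, of F2 and of Pros1 are shown because Ggcx is the gene with the genotype difference, F2 is the most abundant substrate transcript and Pros1 is the substrate with the largest difference of the other 9. They are RefSeq sequences on GRCm38.p6, written 5′ to 3′ along the strand of the gene, with each CG dinucleotide in capitals. The Ggcx stretch is chr6:72414058-72414307 (plus strand), that of F2 is chr2:91636458-91636707 (minus strand) and that of Pros1 is chr16:62854057-62854306 (plus strand).
Ggcx: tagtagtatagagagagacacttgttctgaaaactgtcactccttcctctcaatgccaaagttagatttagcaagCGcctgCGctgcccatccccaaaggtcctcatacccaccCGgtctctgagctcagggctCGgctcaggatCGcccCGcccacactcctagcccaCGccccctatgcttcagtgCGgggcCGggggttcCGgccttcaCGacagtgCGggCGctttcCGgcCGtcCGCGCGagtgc
F2: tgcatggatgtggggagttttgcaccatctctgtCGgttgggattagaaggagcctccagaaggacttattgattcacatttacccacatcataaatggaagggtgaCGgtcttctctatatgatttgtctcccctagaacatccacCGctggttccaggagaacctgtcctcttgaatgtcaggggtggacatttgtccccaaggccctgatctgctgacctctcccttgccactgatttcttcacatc
Pros1: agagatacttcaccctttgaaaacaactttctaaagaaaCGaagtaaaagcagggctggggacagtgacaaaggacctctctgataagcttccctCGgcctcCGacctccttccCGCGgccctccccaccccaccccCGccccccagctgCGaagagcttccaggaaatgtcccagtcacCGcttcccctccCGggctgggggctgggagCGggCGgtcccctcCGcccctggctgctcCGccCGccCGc

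Promoters of the vitamin K cycle enzymes were richer in CG dinucleotides than those of most clotting factors. Of the 10 genes, 9 had an entry in the promoter table. Vkorc1l1 held 40 CG dinucleotides in its 250 bases, Ggcx 18, Pros1 15 and Vkorc1 9. The Vkorc1l1 stretch, chr5:129941859-129942108, runs past the gene start of 129941970 given below, so part of it lies inside the gene. Proz held 7, F7 and F10 held 4 each, and F2 and F9 held 3 each, beside a median of 6 over 32851 mouse promoters of the same length. The Ggcx stretch was 61.2% G and C and that of F2 49.2%, and 78.3% of all promoters had fewer CG dinucleotides than Ggcx. GGGCGG, the core of a GC box, was found on either strand in Ggcx, Vkorc1, Vkorc1l1 and Pros1 and in 32.7% of all promoters. CCAAT occurred in Vkorc1, Vkorc1l1 and F7 (33.8% of all promoters), GTTAAT in Proz (6.43%), and TATAAA in none of the 9 (12.4%). These matches to short words describe the sequence and identify no bound factor.

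Total counts ran from 24829693 to 37823155 per liver. In CPM, which are counts scaled to a common library size with TMM factors (trimmed mean of M-values), Rbfox2 itself was at 13.96, 20.5, 19.0, 17.9 and 23.2 in WT 1 to 5 and at 6.84, 8.61 and 12.4 in Rbfox2 KO 1 to 3. The groups did not overlap, and the log2 fold change (Rbfox2 KO minus WT) was -1.03 ± 0.21 (SE), at an adjusted p of 0.328 by edgeR and of 0.0019 by DESeq2. Counts cover the whole gene, and the exons between the loxP sites were not counted apart. Rbfox2 KO 1 stood apart from the other livers. Its 12 pancreatic exocrine marker transcripts summed to 473.8 CPM, against 4.78 to 17.2 in the others, and its TMM factor of 1.29 was the highest. The log2 fold changes of the 10 genes are therefore also given without this liver. The 10 skeletal muscle markers summed to 288 CPM in WT 4, 401 CPM in WT 5 and 231 CPM in Rbfox2 KO 1, and to 1.22 to 47.5 CPM in the other 5 livers. Defining hepatocyte transcripts were abundant in all 8 livers, and their 8-gene sum was between 75913 and 81696 CPM for WT and between 69419 and 84150 CPM for Rbfox2 KO. In whole liver, a smaller share of a cell type and less of its RNA per cell cannot be told apart.

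Ggcx transcript was lower in every Rbfox2 KO liver than in any WT liver. Ggcx (ENSMUSG00000053460) lies on the plus strand of chromosome 6 in GRCm38, between 72414308 and 72430712. It was at 18.7, 21.3, 18.6, 23.8 and 22.9 CPM in WT 1 to 5 and at 10.2, 11.3 and 10.7 CPM in Rbfox2 KO 1 to 3. The 3 Rbfox2 KO livers sat within a narrow band, and the lowest WT liver was well above the highest of them. The means were 21.1 ± 2.40 CPM (SD, n = 5) across WT livers and 10.7 ± 0.545 CPM (SD, n = 3) across Rbfox2 KO livers, or 50.9% of WT. The log2 fold change was -0.97 ± 0.12 (SE), and it was -0.95 without Rbfox2 KO 1, -0.93 without WT 4 and -0.94 without WT 5. Between 287 and 775 reads per liver stand behind these levels.

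Ggcx was chosen by its p-value, so its place by size is given as a description. A choice by p-value also favours a small SE. Of the 14654 genes that passed the filter on low counts, 289 (1.97%) had a larger absolute log2 fold change. Their median SE was 0.67, against 0.12 for Ggcx and 0.17 over all tested genes. The next gene in order of p-value was Gm21286, a predicted gene, at 1.93 ± 0.438 CPM (SD, n = 5) across WT livers and 0.528 ± 0.0244 CPM (SD, n = 3) across Rbfox2 KO livers, with a log2 fold change of -1.86 ± 0.25 (SE).

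The genes beside Ggcx on chromosome 6 did not pass the test for a genotype difference. Mat2a encodes a catalytic subunit of methionine adenosyltransferase. It lies on the minus strand, and its nearer end, where its transcription ends, is 2086 bp beyond Ggcx. Mat2a was at 66.4 ± 3.27 CPM (SD, n = 5) across WT livers and 67.0 ± 4.08 CPM (SD, n = 3) across Rbfox2 KO livers. Its log2 fold change of 0.01 had a 95% interval of -0.18 to 0.21. The vesicle fusion genes Vamp8 and Vamp5 on the other side had log2 fold changes of 0.11 (-0.33 to 0.54) and 0.10 (-0.37 to 0.57). Capg, an actin-capping protein gene with 56 to 176 reads per liver, had the widest interval of the 4 neighbours, at 0.42 (-0.22 to 1.06). Without Rbfox2 KO 1 the log2 fold changes were -0.11 for Capg, -0.13 for Vamp5, 0.02 for Vamp8 and 0.06 for Mat2a. With all livers, all 4 had an edgeR adjusted p of 0.99997.

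Ggcx has 5 annotated transcripts, of which 1 is protein-coding and 4 are classed as targets of nonsense-mediated decay. Counts per gene do not separate them. The longest transcript, 2929 bases, holds 1 copy of TGCATG, the DNA form of the hexamer that RBFOX proteins recognise, counted on the transcript strand. Of 2873 tested genes whose longest transcript is within 500 bases of that length, 55.4% hold at least 1 copy. Vkorc1l1, F2 and Pros1 hold 1 copy each, F7 holds 2, and Vkorc1, F9, F10, Proc and Proz hold 0. The shares of tested genes of like length with at least 1 copy were 73.6% for Vkorc1l1, 58.3% for F2, 60.2% for Pros1 and 38.7% for F7. They were 14.1% for Vkorc1, 52.4% for F9, 49.1% for F10, 33.3% for Proc and 60.9% for Proz. Introns were not searched.

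**Figure D1:**
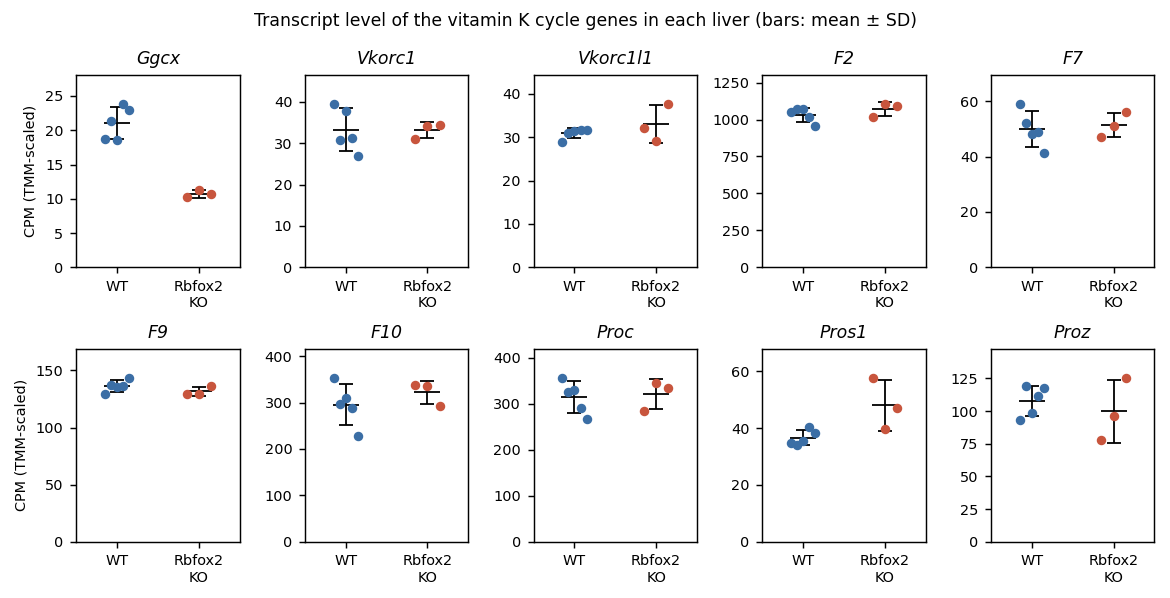
Transcript level of each of the 10 genes in TMM-scaled CPM (vertical axes from 0) in the 5 WT and 3 Rbfox2 KO livers, with 1 point per liver and the mean ± SD as bars. The Ggcx points of the groups are separate, at 18.6 to 23.8 in WT and 10.2 to 11.3 in Rbfox2 KO, and the ranges of each of the other 9 genes overlap.

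The reductases that recycle the cofactor did not pass the test for a genotype difference. Vkorc1 encodes the warfarin-sensitive epoxide reductase (chromosome 7, 127893063 to 127895617, minus strand). It was at 39.5, 30.9, 37.7, 31.4 and 26.8 CPM in WT 1 to 5 and at 31.0, 34.3 and 34.5 CPM in Rbfox2 KO 1 to 3. The Rbfox2 KO values fell inside the WT range, and the means were 33.3 ± 5.22 CPM (SD, n = 5) and 33.2 ± 1.92 CPM (SD, n = 3). Its log2 fold change of 5.24e-05 had a 95% interval of -0.29 to 0.29. Vkorc1 overlaps the annotated gene Gm21974 on the same strand, which had 0 counts in all 8 livers.

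Vkorc1l1 encodes a related reductase with vitamin K epoxide activity (chromosome 5, 129941970 to 129986692, plus strand). Its levels were 28.8, 30.9, 31.3, 31.7 and 31.6 CPM in WT 1 to 5 and 32.2, 29.1 and 37.6 CPM in Rbfox2 KO 1 to 3. Its annotation overlaps Gm42986 and Gm43482 on the same strand, which had at most 5 counts per liver. WT livers were tightly grouped and the highest value was that of Rbfox2 KO 3. The log2 fold change was 0.09, with a 95% interval of -0.12 to 0.31.

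The procoagulant substrates did not pass the test either. Prothrombin, encoded by F2 on chromosome 2 (91625320 to 91636414, minus strand), is the precursor of thrombin. F2 was at 1051, 1068, 1069, 1016 and 958 CPM in WT 1 to 5 and at 1019.9, 1105 and 1091 CPM in Rbfox2 KO 1 to 3. All 8 livers lay within a narrow range, and the log2 fold change was 0.05 (95% interval -0.18 to 0.29). Factor IX, the gene product of F9 on chromosome X (59999464 to 60030759, plus strand), activates factor X together with factor VIII. F9 was at 129.2, 137, 135, 136 and 143 CPM in WT 1 to 5 and at 129.7, 129.5 and 136 CPM in Rbfox2 KO 1 to 3, and its log2 fold change was -0.05 (-0.23 to 0.14).

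F7, F10 and Proz form a cluster on the plus strand of chromosome 8 that spans 49993 bp. F7 (13026034 to 13035809) ends 1498 bp before F10 (13037308 to 13056676), which ends 4237 bp before Proz (13060914 to 13076026). Factor VII starts coagulation with tissue factor, and factor X is the protease that activates prothrombin. F7 was at 59.0, 52.1, 48.3, 48.9 and 41.3 CPM in WT 1 to 5 and at 47.2, 50.9 and 55.9 CPM in Rbfox2 KO 1 to 3. F10 was at 352, 298, 309.8, 288 and 229 CPM in WT 1 to 5 and at 337, 336 and 292 CPM in Rbfox2 KO 1 to 3. For both genes all Rbfox2 KO livers lay between the WT extremes, WT 1 at the top and WT 5 at the bottom. The log2 fold changes were 0.04 (95% interval -0.22 to 0.31) for F7 and 0.12 (-0.18 to 0.43) for F10.

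Proz encodes protein Z, a cofactor of the inhibitor of factor Xa. It was at 93.0, 119, 98.5, 112 and 118 CPM in WT 1 to 5 and at 78.0, 96.1 and 125 CPM in Rbfox2 KO 1 to 3. Rbfox2 KO livers held both the lowest and the highest value. The log2 fold change was -0.11 (95% interval -0.45 to 0.23), and it was 0.03 without Rbfox2 KO 1.

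Of the anticoagulant pair, neither transcript passed the adjusted test, and that of protein S had the higher mean in Rbfox2 KO. Protein C, the product of Proc on chromosome 18, is a protease that inactivates factors V and VIII, with protein S as its cofactor. Proc was at 355, 325, 329.8, 291 and 268 CPM in WT 1 to 5 and at 283, 345 and 334 CPM in Rbfox2 KO 1 to 3, with a log2 fold change of 0.03 (95% interval -0.24 to 0.30). Pros1, which encodes protein S (chromosome 16, 62854307 to 62929346, plus strand), was at 34.8, 34.1, 35.7, 40.5 and 38.3 CPM in WT 1 to 5 and at 57.6, 39.7 and 47.0 CPM in Rbfox2 KO 1 to 3. The groups overlapped, since WT 4 was above Rbfox2 KO 2. The means were 36.7 ± 2.67 CPM (SD, n = 5) and 48.1 ± 9.02 CPM (SD, n = 3). The log2 fold change of Pros1 was 0.39 ± 0.12 (SE), with a 95% interval of 0.12 to 0.66, an unadjusted edgeR p of 0.00885 and an adjusted one of 0.864. Without Rbfox2 KO 1 it was 0.24.

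Endothelial cells and macrophages also express protein S, so markers of other cell types are given beside Pros1. The 8 Kupffer cell and macrophage markers summed to 209.5 to 243 CPM across WT livers and to 283, 219 and 295 CPM in Rbfox2 KO 1 to 3. Marco and Cd5l, with log2 fold changes of 1.16 and 0.44, had an unadjusted edgeR p under 0.05, and 0 of the 8 passed the adjusted test. Over all tested genes, 4.74% had an unadjusted edgeR p under 0.05, and this share applies to each marker list here. Sums of 8 stellate cell markers were 226 to 293 CPM across WT livers and 336, 216 and 249 CPM in Rbfox2 KO 1 to 3. The 8 sinusoidal endothelial markers summed to 211 to 232 CPM across WT livers and to 198, 219 and 225 CPM in Rbfox2 KO 1 to 3. Rbfox2 KO 2 had the lowest macrophage and stellate sums of its group. Of 8 cholangiocyte markers, 6 were tested and 0 passed the adjusted test, and 1, Tm4sf4, had an unadjusted edgeR p under 0.05, with a log2 fold change of 0.58. Their sums were 85.0 to 108 CPM across WT livers and 180.2, 104 and 116 CPM in Rbfox2 KO 1 to 3. Tm4sf4 alone was at up to 148 CPM in Rbfox2 KO. The 8 lymphocyte markers summed to 8.26 to 23.9 CPM across WT livers and to 13.4, 8.57 and 12.2 CPM in Rbfox2 KO 1 to 3. Of them, 3 had an unadjusted edgeR p under 0.05, all lower in Rbfox2 KO, and 0 passed the adjusted test. These 3 were at low levels, with WT means of 0.585 to 1.36 CPM and at most 92 counts per liver. The part of these cells in the Pros1 values was not tested.

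Across the 9 genes other than Ggcx, 0 passed an adjusted p of 0.05 in edgeR, where 0% of the 14654 tested genes did (0 genes). By DESeq2, 0 of the 9 and 0.403% of all tested genes passed (59 genes). At an unadjusted edgeR p under 0.05, the count was 1 of 9 (Pros1), against 4.74% of all tested genes (694 genes). Without Rbfox2 KO 1 that count was 0 of 9. Levels of the groups did not overlap for 0 of the 9 and for 3.71% of all tested genes. The log2 fold changes were positive for 7 and negative for 2, with a median of 0.04, against 0.00095 over all tested genes. Apart from Pros1, the smallest edgeR adjusted p was 0.99997, and the 95% intervals of these 8 genes ran from -0.45 at the lowest to 0.43 at the highest. Without Rbfox2 KO 1, the log2 fold changes were 0.04 for Vkorc1, 0.11 for Vkorc1l1, 0.08 for F2, 0.09 for F7, -0.04 for F9, 0.08 for F10 and 0.11 for Proc.

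**Figure D2:**
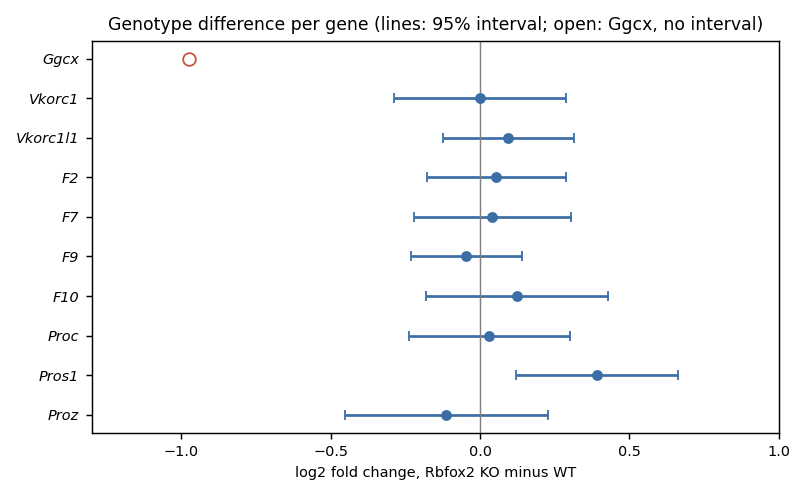
The log2 fold change (horizontal axis, Rbfox2 KO minus WT) of the 10 genes from the edgeR fit over all 8 livers, with lines for the 95% interval of the 9 genes listed by function and an open point without interval for Ggcx. Ggcx is at -0.97, Pros1 at 0.39 with an interval of 0.12 to 0.66, and the intervals of the other 8 genes include 0.

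Levels of different genes can be compared on a scale of CPM per kilobase of exon. On this scale Ggcx and Vkorc1l1 transcripts were far less abundant than the main substrates, and Vkorc1 ranked between F9 and F7. F2 had the highest WT level, 224.7 ± 10.2 CPM per kilobase (SD, n = 5). Proc was at 127 ± 13.9 and F10 at 108 ± 16.3, and the WT ranges of these neighbours in the order overlapped, though Proc was above F10 in 5 of 5 WT livers. F9 followed at 49.8 ± 1.83, Vkorc1 at 39.6 ± 6.22, F7 at 26.8 ± 3.47, Proz at 19.5 ± 2.10 and Pros1 at 8.97 ± 0.653. Ggcx, at 6.49 ± 0.739, and Vkorc1l1, at 5.87 ± 0.224, were lowest. Their WT ranges overlapped, with Ggcx above Vkorc1l1 in 4 of 5 WT livers. In Rbfox2 KO livers the Ggcx level was 3.31 ± 0.168 and the Vkorc1l1 level 6.26 ± 0.826 CPM per kilobase (SD, n = 3). Read against the longest transcript in place of all exons, F7 and Proz changed places.

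**Figure D3:**
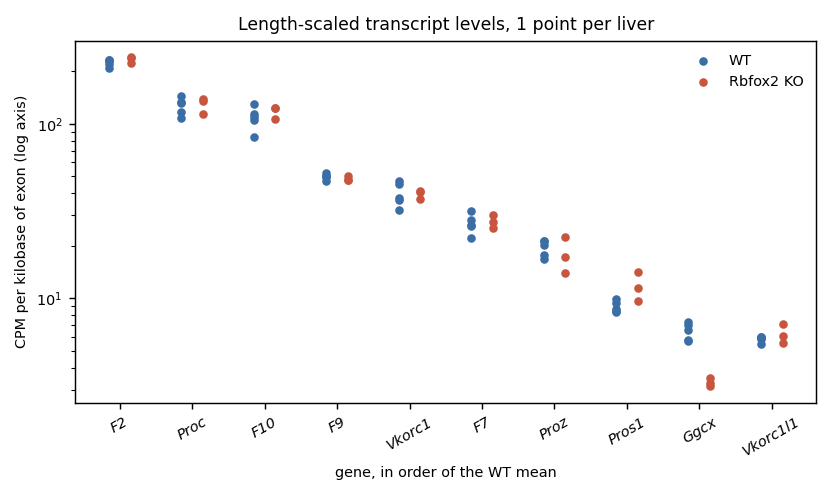
Level of each gene in CPM per kilobase of exon (log axis) with genes in the order of their WT mean, 1 point per liver, WT left and Rbfox2 KO right of each tick. Levels run from 224.7 for F2 to 5.87 for Vkorc1l1 in WT, and Ggcx drops from 6.49 in WT to 3.31 in Rbfox2 KO.

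Transcript of the carboxylase was also compared with the summed transcript of its 7 substrates in the same liver, again per kilobase of exon. Per 1000 units of substrate transcript there were 9.51, 11.3, 9.86, 13.4 and 13.98 units of Ggcx in WT 1 to 5 and 5.61, 5.75 and 5.55 units in Rbfox2 KO 1 to 3. The mean was 11.6 ± 2.01 (SD, n = 5) across WT livers and 5.64 ± 0.105 (SD, n = 3) across Rbfox2 KO livers, which is a description since Ggcx was chosen for its difference. The substrate sum itself was 565 ± 38.4 CPM per kilobase (SD, n = 5) across WT livers and 586 ± 22.7 CPM per kilobase (SD, n = 3) across Rbfox2 KO livers, and F2 made up 39.9% of it in WT and 39.8% in Rbfox2 KO. The sum of Vkorc1 and Vkorc1l1 was 45.5 ± 6.07 and 45.8 ± 2.59 CPM per kilobase. WT 5 had the highest ratio and the lowest substrate sum of the 8 livers.

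Variation among the 5 WT livers differed between the genes. F9, Vkorc1l1 and F2 had coefficients of variation of 3.67%, 3.82% and 4.54%, and Pros1 had 7.28%. Proz (10.8%), Proc (10.999%), Ggcx (11.4%) and F7 (12.9%) were near the median of 11.3% over the 6602 genes with at least 10 CPM in WT. F10 (15.1%) and Vkorc1 (15.7%) varied most. Of the 10 genes, Vkorc1, F7, F10 and Proc were each highest in WT 1 and lowest in WT 5.

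The tested genes whose pattern over the 8 livers was nearest to that of Ggcx were not other members of the cycle. Likeness was the root mean square difference of log2 CPM after each gene was centred on its own mean, and the 5 nearest genes are named. Hmgcs1, the cytosolic HMG-CoA synthase of the mevalonate pathway, was nearest at 0.17, followed by Mrgpre at 0.18, Fam126a at 0.19, Nsdhl at 0.20 and A930004J17Rik at 0.20. Nsdhl encodes a dehydrogenase of cholesterol synthesis. Mrgpre and A930004J17Rik were at low levels, with WT means of 0.983 and 2.21 CPM. They had 14 to 40 and 40 to 85 reads per liver, so counting error weighs on their pattern. The median over all tested genes was 0.53. Proz (0.44) and F9 (0.46) were the nearest of the 9 other genes and Pros1 (0.68) the farthest. The 5 nearest genes had Rbfox2 KO levels between 52.4% (Nsdhl) and 65.5% (A930004J17Rik) of WT, a similarity that the measure itself selects.

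Genes that handle vitamin K or assist the cycle were listed next, and 0 of 11 tested passed the adjusted test in edgeR or DESeq2. All 12 listed genes had a row and 11 passed the filter. Their log2 fold changes were positive for 3 and negative for 8, with a median of -0.05. At an unadjusted edgeR p under 0.05, 2 of the 11 were lower, beside 4.74% of all tested genes in either direction. Pdia4, a protein disulfide isomerase of the endoplasmic reticulum, was at 116, 168, 178, 180.2 and 161 CPM in WT 1 to 5 and at 78.6, 129 and 116 CPM in Rbfox2 KO 1 to 3. Its log2 fold change was -0.57 ± 0.19 (SE, edgeR adjusted p = 0.882), and -0.39 without Rbfox2 KO 1. Its groups overlapped. P4hb, another disulfide isomerase, and thioredoxin (Txn1) had the highest levels per kilobase in WT, with log2 fold changes of -0.05 (95% interval -0.29 to 0.19) and -0.09 (-0.53 to 0.35).

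Of 9 further Gla protein genes, 7 passed the filter, and their median log2 fold change was 0.07 with 4 positive and 3 negative. Apart from Gas6 and Prrg2, the tested genes had WT means of only 0.243 to 1.56 CPM and SE of 0.389 to 0.861. The median and the signs therefore rest mostly on low levels. By edgeR or DESeq2 adjusted p, 0 passed, and 0 had an unadjusted edgeR p under 0.05. Gas6, a growth factor homologous to protein S, was at 43.1 ± 4.02 CPM (SD, n = 5) across WT livers and 43.0 ± 7.43 CPM (SD, n = 3) across Rbfox2 KO livers. Prrg2, a transmembrane Gla protein gene, had a log2 fold change of -0.01 (95% interval -0.30 to 0.27).

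Coagulation genes without a Gla domain gave no call. A row was found for 15 of 16 listed genes and 14 were tested, with a median log2 fold change of -0.02, 5 positive and 9 negative, and 0 passed an adjusted p of 0.05 in edgeR or DESeq2. F11, which encodes the factor XI that activates factor IX, was at 18.7, 19.5, 19.6, 16.7 and 20.1 CPM in WT 1 to 5 and at 15.2, 17.3 and 13.01 CPM in Rbfox2 KO 1 to 3. Its log2 fold change was -0.32 ± 0.11 (SE, edgeR adjusted p = 0.899), with WT 4 below Rbfox2 KO 2. The fibrinogen chain genes Fga and Fgg had log2 fold changes of -0.06 (95% interval -0.37 to 0.25) and -0.03 (-0.33 to 0.26). Anticoagulants and fibrinolysis genes gave 7 positive and 6 negative values among 13 tested of 14 listed, a median of 0.01, and 0 with an unadjusted edgeR p under 0.05. Plasminogen (Plg) was at -0.06 (-0.34 to 0.23) and histidine-rich glycoprotein (Hrg) at -0.12 (-0.38 to 0.14) in log2 fold change.

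Among 14 genes for the processing and secretion of Gla proteins, all were tested, 5 were positive and 9 negative, the median was -0.03 and 0 passed the adjusted test in either tool. Pcsk5, a proprotein convertase gene, was at 6.50, 7.69, 5.87, 7.37 and 8.52 CPM in WT 1 to 5 and at 8.72, 9.48 and 9.40 CPM in Rbfox2 KO 1 to 3. Its groups did not overlap, which also held for 3.71% of all tested genes. Its log2 fold change was 0.35 ± 0.13 (SE, edgeR adjusted p = 0.949). The endoplasmic reticulum chaperone genes Hspa5 and Calr had the highest levels per kilobase of this list. Hspa5 was at 626, 761, 945, 879.6 and 732 CPM in WT 1 to 5 and at 419, 729 and 667 CPM in Rbfox2 KO 1 to 3. The log2 fold changes were -0.38 (95% interval -0.82 to 0.05) for Hspa5 and -0.35 (-0.70 to 0.00) for Calr, and -0.18 and -0.23 without Rbfox2 KO 1.

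The hepatocyte transcription factors, 12 of 12 tested, gave 7 positive and 5 negative log2 fold changes with a median of 0.02, and 0 passed an adjusted p of 0.05 in edgeR or DESeq2. Foxa3, a forkhead factor, was at 39.1, 32.2, 48.0, 39.3 and 37.3 CPM in WT 1 to 5 and at 60.4, 48.8 and 47.8 CPM in Rbfox2 KO 1 to 3. WT 3 was just above Rbfox2 KO 3, and the log2 fold change was 0.42 ± 0.13 (SE, edgeR adjusted p = 0.882), and 0.30 without Rbfox2 KO 1. Hnf4a and Cebpa, the most abundant per kilobase, had log2 fold changes of 0.00 (95% interval -0.38 to 0.39) and -0.03 (-0.30 to 0.25).

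**Figure D4:**
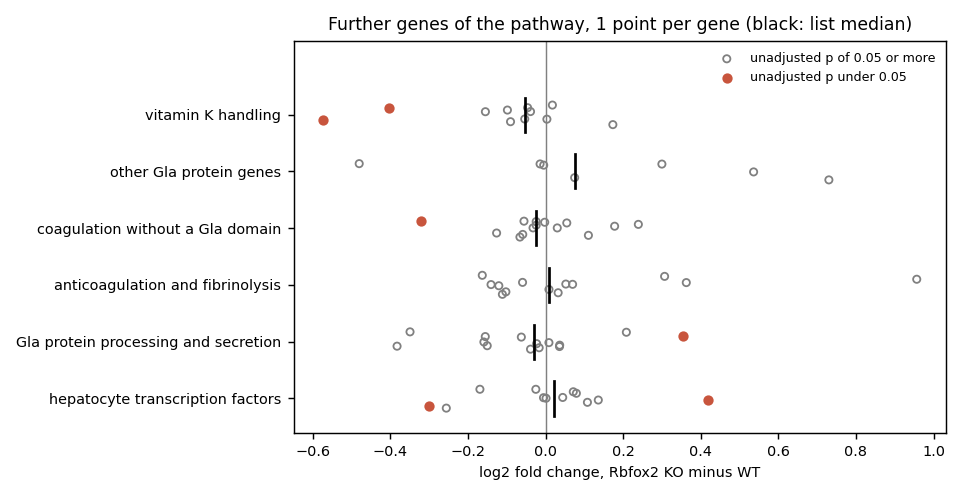
The log2 fold change (horizontal axis, Rbfox2 KO minus WT) of each tested gene in the 6 lists around the vitamin K cycle, with filled points for an unadjusted edgeR p under 0.05, open points for the rest and black bars for list medians. Medians lie between -0.05 and 0.07, and filled points number 2, 0, 1, 0, 1 and 2 from top to bottom. Over all tested genes, 4.74% had an unadjusted edgeR p under 0.05.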

How the data were processed

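The table as deposited holds unnormalised read counts for Ensembl genes, and labels gave each sample its group and number. The authors aligned poly(A)-selected, paired-end reads to GRCm38 with TopHat2 2.0.11 as strand-specific libraries and counted them with featureCounts. Use of strand in counting and the handling of multi-mapped reads are not given in the sources used here, so counts of overlapping genes are uncertain.

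Of 46078 genes, 45143 had a symbol in the matching annotation, and 14654 passed filterByExpr. All of them entered a two-sided edgeR 4.0.16 (R 4.3.3) quasi-likelihood test (robust, TMM scaling) with genotype as single term and a Benjamini-Hochberg threshold of 0.05. The SE is the absolute log2 fold change divided by the square root of F. A level of 3 counts equals 0.0793 to 0.121 CPM, a floor that covers counting error only. Pairs of samples within a group differed beyond sampling noise (chi-square per degree of freedom 45.5 to 346). Samples are treated as separate mice, and p-values judge the difference between the groups against the spread between these samples. Levels per kilobase used the union of annotated exons.

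The genes and lists were chosen with earlier results of these data known. Beyond the 10 genes and Rbfox2, the genes named are, per list, those with an unadjusted p under 0.05 and the 2 most abundant per kilobase in WT, the 2 nearest tested protein-coding genes on each side of Ggcx, the 5 genes nearest to it in pattern and the next gene by p-value. Of these, 2 list genes are counted but not reported singly here. Marco, Cd5l and Tm4sf4 were named after their values were seen. Alternatives were other scalings, filters, DESeq2 1.42.0, limma-voom (limma 3.58.1), a replicate block, leaving out each sample, and, chosen after the data were seen, an unadjusted threshold. The procedure was tested on simulated data.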

Additional observations from a re-analysis of the deposited data

Results flagged for a closer look

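Of 46 values checked in the 5 WT livers for a single liver far from the other 4 (a gap above 0.71 of the range), 5 were found, where chance alone would give about 2.3. Vkorc1l1 was at 28.8 CPM in WT 1, and at 30.9 to 31.7 CPM in the other 4. P4hb was at 824 CPM in WT 5 (915 to 942 in the others), Gas6 at 50.1 CPM in WT 5 (40.2 to 42.5) and Fgg at 1429 CPM in WT 5 (1823 to 1893). The summed pancreatic exocrine markers were at 17.2 CPM in WT 1 (4.78 to 5.26).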

How the results depend on the processing

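Ggcx kept its direction under all alternatives, which is a description only, since it was chosen for its difference in these same livers. Its log2 fold changes were -1.02 to -0.93 over the fits without a sample, -0.88 with library totals and -0.86 with the replicate block. Of the 9 other genes, 0 passed an adjusted p of 0.05 in any setting, and the same held for each of the 6 lists. Over all genes, edgeR called 0 with the filter, with 694 at an unadjusted p under 0.05, and 6 without it, and DESeq2 called 59. Rbfox2, at a log2 fold change of -1.03, passed with DESeq2, and ran from -1.296 to -0.85 over the fits without a sample. Fam126a also passed without the filter, and Hmgcs1, Fam126a and Nsdhl passed with DESeq2. Values near 0 changed sign: Vkorc1 to -0.00467 with DESeq2 size factors and -0.00450 with DESeq2, and F9 to 0.0635 with library totals, which shift the median of all genes to 0.12. Leaving out a sample gave ranges of -0.0677 to 0.0645 for Vkorc1, -0.0136 to 0.176 for Vkorc1l1, -0.0257 to 0.104 for F7, -0.0248 to 0.107 for Proc, -0.312 to 0.0298 for Proz, -0.0193 to 0.0569 for Mat2a, -0.135 to 0.283 for Vamp5 and -0.110 to 0.651 for Capg, and 0.24 to 0.51 for Pros1. The median of the further Gla protein genes moved from 0.07 to 0.33 with library totals, 0.34 without WT 4 and 0.26 without Rbfox2 KO 3, that of the hepatocyte factors from 0.02 to -0.11 without Rbfox2 KO 3, and that of the coagulation genes without a Gla domain from -0.02 to 0.06 without Rbfox2 KO 1. Of the log2 fold changes of the 9 genes, 61 of 72 without a sample and 57 of 63 under other settings kept their direction. The cause of these changes was not tested.

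Equal sample numbers share no stated litter or batch, and the deviations of same-numbered samples correlated at 0.163, 0.0484 and 0.170, so the numbers were not taken as pairs. With the replicate block 0 genes were called, Vkorc1 moved to -0.11, F7 to -0.0478, Proc to -0.0746 and Vamp8 to -0.0562, and 0 of 3 Rbfox2 KO samples correlated best with their own number.

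With 3 Rbfox2 KO livers, differences inside the printed 95% intervals were not excluded. Counts per gene resolve neither transcripts nor the level or carboxylation of the proteins.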
